A study of Solanum lycopersicum with 8 samples.

Results

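Plants answer microbes in steps. Receptors at the cell surface, such as FLS2, which binds bacterial flagellin, work with the SERK3 co-receptor (BAK1 in Arabidopsis) and pass a signal to cytoplasmic kinases. Lipase-like proteins of the EDS1, PAD4 and SAG101 family and the hormone salicylic acid, made through isochorismate synthase (ICS1) and sensed through NPR1, carry the response on. Its outputs include the pathogenesis-related (PR) proteins, many of them secreted, such as PR1, chitinases, glucanases and the osmotins of the PR5 family.

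Of 32 tomato genes of these groups, listed by identifier, 30 had a row among the 34688 genes of the table and 28 were tested. All of them count whatever their change, but the list was made with earlier results of these data known. The list held 21 PR outputs and 11 signalling genes. Solyc00g174340 and Solyc01g106610, both listed as PR1, were not analysed here. Solyc09g007020 (PR1) and Solyc08g080620 (osmotin) had a mean under 0.1 FPKM over the 8 libraries and were not tested. The names of most members come from the list itself. The study's own tables name only FLS2, ICS1 and the chitinases Solyc04g072000 and Solyc10g055820 among them, and no source names Solyc07g049180, a signalling member.

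RNA was sequenced from entire wild-type (WT) Micro-Tom seedlings, a dwarf tomato cultivar, that were 10 days old and grown at 25 °C. The 4 Torin2 libraries came from seedlings given 5 μM Torin2, an inhibitor of the TOR kinase, and the 4 mock libraries from seedlings given water with 0.1% DMSO, the solvent. The treatment lasted 2 h, and the submitters describe the libraries of a condition as biological replicates. The comparison asks which transcripts differ in level when TOR, a kinase that promotes growth, is inhibited.

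Levels are in FPKM, fragments relative to the length of the gene and to all fragments of the library. Each library held 36989257 to 39868131 fragments, as recovered from the values. Among 4 genes listed as tissue markers, Solyc02g085950, annotated as a Rubisco small chain of photosynthetic tissue, ranged from 791 to 3284 FPKM in mock and from 633 to 1572 FPKM in Torin2, and the listed root gene Solyc02g069200 was at 0 to 0.119 FPKM. Solyc03g034220, the other listed shoot gene, ranged from 11964 to 20682 FPKM in mock and from 8604 to 16106 FPKM in Torin2, and Solyc01g094910, the other listed root gene, from 0.784 to 1.39 FPKM in mock and from 1.66 to 3.38 FPKM in Torin2. None of the 3 markers tested was called. Their log2 fold changes were -0.71 for Solyc02g085950 (limma adjusted p = 0.274), -0.35 for Solyc03g034220 (limma adjusted p = 0.406) and 1.04 for Solyc01g094910 (limma adjusted p = 0.0507), and their part in the other results was not tested. Samples of whole plants cannot tell a change in RNA per cell from a change in the share of a cell type.

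Differences are log2 fold changes, Torin2 minus mock, on log2(FPKM + 0.1), with the standard error (SE) and the adjusted p of limma, a linear model fitted across genes. A gene was called when its adjusted p was under 0.05 and its log2 fold change was over 1 in size. Among the 22330 genes tested, 1186 were called higher (5.31%) and 671 lower (3.0%), and their median log2 fold change was 0.16. Rescaling the libraries by the median of ratios moved that median to 0.01 and the calls to 767 higher and 1012 lower. The libraries were also split into 2 kinds by the sign of their score on the first component of their deviations from the condition means. This component held 53.61% of these deviations. Scores ran from -0.52 (Torin2 1) to 0.45 (Torin2 2), with mock 4 at -0.17. Since the deviations average to 0 within a condition, both kinds occur in each condition by construction. Whether the libraries form separate groups was not tested. The first kind held mock 1, mock 2, Torin2 2 and Torin2 4, and the second kind mock 3, mock 4, Torin2 1 and Torin2 3, so that each kind had 2 libraries of each condition.

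Among the 17 PR outputs tested, 3 were called higher and 0 lower, beside 5.31% and 3.0% of all genes tested. All 3 belonged to the 7 chitinases, enzymes that cut chitin, a polymer of fungal cell walls, and the other 4 chitinases did not pass the test. No PR1, glucanase or osmotin was called, and the difference between the families was not tested. For the 0 lower calls, limma gave 0 PR outputs lower at an adjusted p under 0.05 without the fold cut-off as well (5.08% of all genes), and limma-voom also called 0 lower. An unadjusted p under 0.05, in either direction, was met by 6 of the 17, beside 29.1% of all genes tested.

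Solyc04g072000, a chitinase annotated as EP3, had the largest fold change of the 28 members tested. Its level was 79.2, 71.2, 84.7 and 105 FPKM in mock 1 to 4 and 493, 193, 392 and 257 FPKM in Torin2 1 to 4. The lowest Torin2 library was above the highest mock library, and the Torin2 libraries varied more among themselves than the mock libraries. The mean went from 85.0 ± 14.3 (SD, n = 4) to 334 ± 135 FPKM (SD, n = 4). It rose with a log2 fold change of 1.89 (SE 0.27, limma adjusted p = 0.000369), which is 3.72-fold. The rise was present in both kinds of library, with a log2 fold change of 1.57 in the first and 2.22 in the second.

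Solyc10g055820, annotated as the chitinase CHTB3, rose from a much lower level. It stood at 2.996, 3.56, 3.50 and 3.50 FPKM in mock 1 to 4 and at 8.77, 8.81, 9.57 and 12.5 FPKM in Torin2 1 to 4, with no overlap. The means were 3.39 ± 0.265 and 9.91 ± 1.75 FPKM (SD, n = 4 each). The log2 fold change was 1.51 (SE 0.24, limma adjusted p = 0.000961), or 2.84-fold, and it was 1.65 within the first kind of library and 1.36 within the second. These values rested on 126 to 154 fragments in a mock library and 369 to 531 in a Torin2 library. Both Solyc04g072000 and Solyc10g055820 stayed called in all 8 fits that left out a single library.

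Solyc02g082920 was the third chitinase called higher, with less margin. Its libraries held 10.4, 8.24, 7.52 and 16.7 FPKM in mock 1 to 4 and 14.6, 24.4, 22.3 and 30.1 FPKM in Torin2 1 to 4. The groups overlapped, since Torin2 1 was below mock 4. The mean was 10.7 ± 4.18 in mock and 22.8 ± 6.39 FPKM in Torin2 (SD, n = 4 each), with a log2 fold change of 1.11 (SE 0.29, limma adjusted p = 0.0218). The call was lost without mock 2 (1.01, limma adjusted p = 0.0637), without mock 3 (0.96, limma adjusted p = 0.0625) and without Torin2 4 (0.96, limma adjusted p = 0.0667). It also fell under the fold cut-off with median-of-ratios scaling (0.95) and quantile normalization (0.99), and its adjusted p over 19 alternatives ranged from 0.00596 to 0.0667.

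Solyc10g055800 had the highest mean level of the chitinases. Mock 1 to 4 held 595, 627, 706 and 607 FPKM and Torin2 1 to 4 held 876, 848, 951 and 1057 FPKM. No Torin2 library was as low as any mock library, an order found for 11.4% of the genes tested. The means were 634 ± 49.8 and 933 ± 93.7 FPKM (SD, n = 4 each), with a log2 fold change of 0.56 (SE 0.18, limma adjusted p = 0.0526), which met neither cut-off. The exact two-sided permutation p of this gene alone was 0.0286, the smallest that 4 against 4 libraries can give. Any gene without overlap reaches this value. For Solyc02g082920, which was called but overlapped, the exact two-sided permutation p was 0.0571. Its adjusted p ranged from 0.00470 to 0.276 over 19 alternatives, and 6 of them put it under 0.05.

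The other chitinases did not pass the test. Solyc10g055810, numbered next to Solyc10g055800, had mean levels of 389 ± 85.0 in mock and 377 ± 75.2 FPKM in Torin2 (SD, n = 4 each). Its log2 fold change of -0.04 (limma adjusted p = 0.920) turned to 0.13 under quantile normalization. Solyc02g082930, numbered next to Solyc02g082920, had a mean of 101 ± 25.8 FPKM in mock and 73.9 ± 35.6 FPKM in Torin2 (SD, n = 4 each) and a log2 fold change of -0.53 (limma adjusted p = 0.254). Solyc02g082920 and Solyc02g082930 thus had fitted changes of opposite sign. Solyc05g050130, whose recovered length of 5427 bp was far above the 969 to 1215 bp of the other chitinases, ranged from 2.60 to 4.25 FPKM over all libraries. Its log2 fold change was 0.19 as deposited, -0.04 under quantile normalization and -0.41 with the trend with gene length removed. How reads shared between similar copies were assigned was not examined.

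Summed over the 7 chitinases, the level was 1137, 1153, 1372.5 and 1241 FPKM in mock 1 to 4 and 1891, 1490, 1858 and 1776 FPKM in Torin2 1 to 4. Solyc10g055800 gave the largest part of this sum in every library. The median log2 fold change over the 7 was 0.56, beside the 0.16 of all genes tested.

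PR1 transcripts, whose protein is a widely used marker of the salicylic acid response, were present at very different levels. Solyc01g106620 was abundant, above 98.96% of the genes tested by its mean level. Its libraries held 488, 629, 565 and 681 FPKM in mock 1 to 4 and 581, 699, 582 and 702 FPKM in Torin2 1 to 4. The conditions overlapped in part. Mock 1 and mock 3 were below every Torin2 library, and Torin2 2 and Torin2 4 were above every mock library. The means were 591 ± 83.2 and 641 ± 68.5 FPKM (SD, n = 4 each), with a log2 fold change of 0.12 (SE 0.19, limma adjusted p = 0.707) and a 95% interval of -0.28 to 0.52. Under median-of-ratios scaling its log2 fold change was -0.04.

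The other PR1 genes of the table were close to silent. Solyc09g007010 ranged from 0 to 0.473 FPKM, which was 24 fragments in all 8 libraries together. Solyc09g007020 was at 0 in all mock libraries and in Torin2 3 and Torin2 4, at 0.209 FPKM in Torin2 1 and at 0.108 FPKM in Torin2 2. Solyc01g106600 ranged from 0.0356 to 0.339 FPKM, or 1 to 10 fragments a library. For Solyc09g007010 and Solyc01g106600 the limma adjusted p was 0.723 and 0.541, with 95% intervals of the log2 fold change of -0.94 to 1.72 and -0.53 to 1.48.

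Osmotins, PR5 proteins named for their part in osmotic stress and active against fungi, had the highest summed level of the 4 families of PR outputs, at 2179 to 3258 FPKM in mock and 2395 to 3169 FPKM in Torin2, and none passed the test. Solyc08g080660 had the highest mean level of all members. It held 925, 1208, 1405 and 1372 FPKM in mock 1 to 4 and 1256, 1015, 1076 and 1158 FPKM in Torin2 1 to 4. The Torin2 libraries all lay within the range of the mock libraries. Its means were 1227 ± 219 and 1126 ± 105 FPKM (SD, n = 4 each), with a log2 fold change of -0.11 (SE 0.20, limma adjusted p = 0.754) and a 95% interval of -0.52 to 0.31.

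Solyc08g080670, numbered next to it, ranged from 617 to 945 FPKM in mock and from 810 to 1134 FPKM in Torin2, with a log2 fold change of 0.37 (limma adjusted p = 0.238). Solyc08g080640 ranged from 438 to 697 FPKM in mock and from 423 to 572 FPKM in Torin2. Solyc08g080650 ranged from 169 to 211 FPKM in mock and from 147 to 206 FPKM in Torin2. The log2 fold changes of Solyc08g080640 and Solyc08g080650 were -0.17 and -0.07, and quantile normalization turned them to 0.02 and 0.01. Solyc08g080620 gave 10 fragments in all 8 libraries together.

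Glucanases, which cut the beta-glucans of fungal walls and of plant callose, did not pass the test either. Solyc10g079860 was the most abundant. It held 127, 134, 107 and 110 FPKM in mock 1 to 4 and 62.7, 129, 67.5 and 86.9 FPKM in Torin2 1 to 4. In Torin2 1, Torin2 3 and Torin2 4 the level was below every mock library, and in Torin2 2 it was within the mock range. The means were 119 ± 13.1 and 86.5 ± 30.1 FPKM (SD, n = 4 each), with a log2 fold change of -0.52 (SE 0.23, limma adjusted p = 0.154). Its adjusted p ranged from 0.0155 to 0.302 over 19 alternatives, 4 of which put it under 0.05.

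Solyc01g008620 was a low glucanase, at 0.433 to 1.34 FPKM in mock and 1.02 to 2.03 FPKM in Torin2, with a log2 fold change of 0.90 (SE 0.37, limma adjusted p = 0.116). Solyc01g060020 ranged from 1.15 to 2.47 FPKM over the 8 libraries. Its log2 fold change of 0.03 (limma adjusted p = 0.965) turned to -0.13 under median-of-ratios scaling and to -0.24 under quantile normalization. The summed level of the 3 glucanases, nearly all of it from Solyc10g079860, was 110 to 136 FPKM in mock and 65.9 to 131 FPKM in Torin2.

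**Figure D1:**
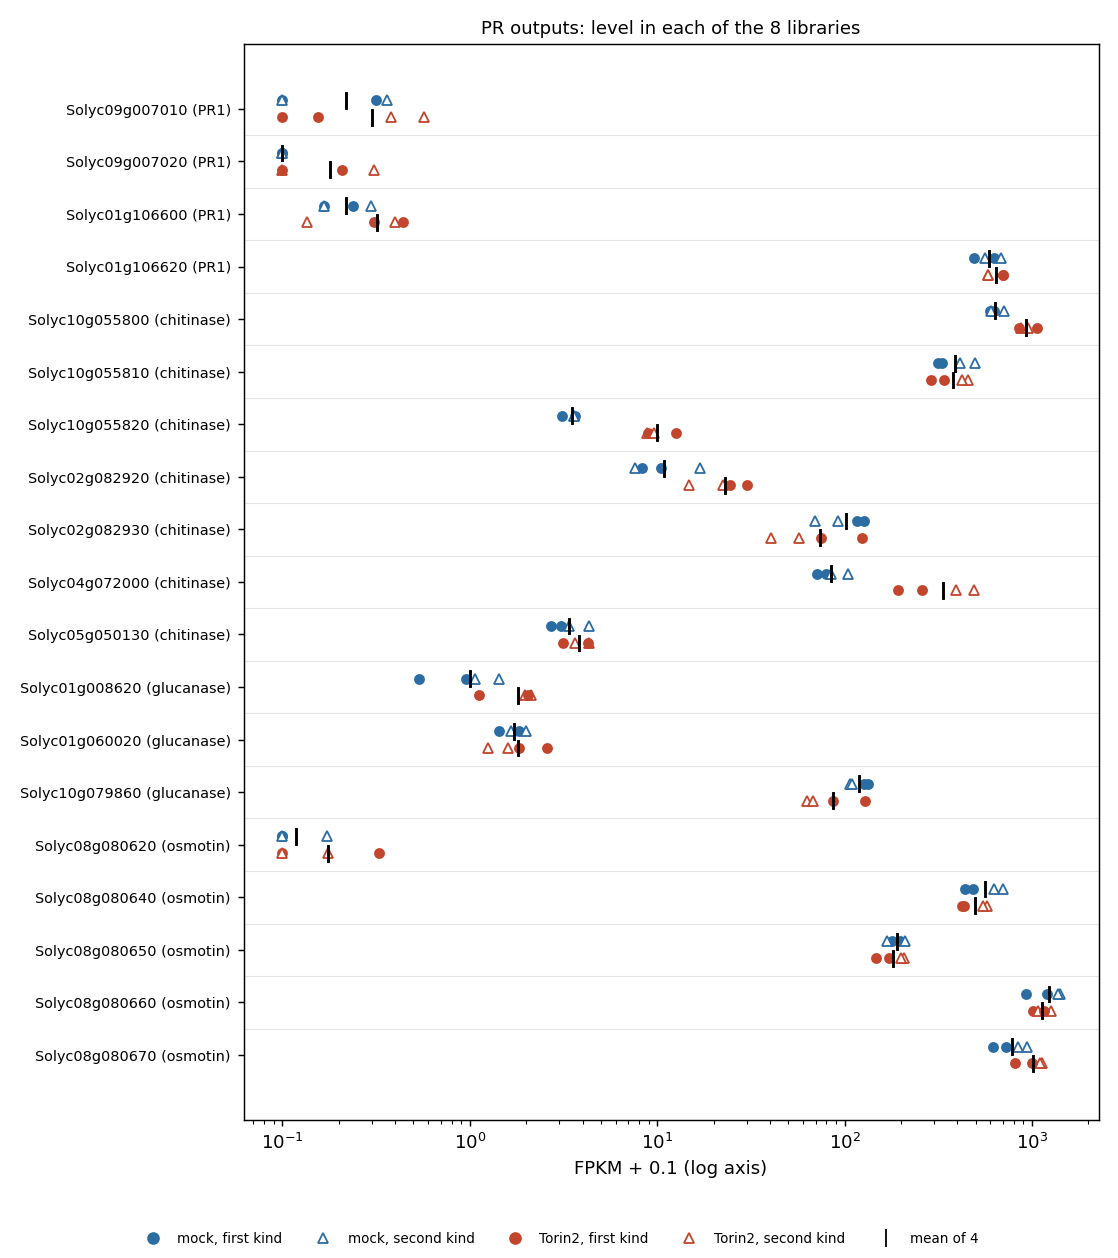
Level of the 19 PR outputs of the table in each library, as FPKM + 0.1 on a log axis, with mock libraries above in blue and Torin2 libraries below in red; filled circles are the first kind of library, open triangles the second, and black bars the mean of 4. The Torin2 libraries of Solyc10g055800, Solyc10g055820 and Solyc04g072000 all lie above the mock libraries, while the osmotins and Solyc01g106620 overlap.

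Among the 11 signalling genes, FLS2 was the only one called higher and 0 were called lower, beside 5.31% and 3.0% of all genes tested. Its co-receptor SERK3, in both copies, the kinase TPK1b and Solyc07g049180 had higher mean levels in Torin2, but their adjusted p of 0.0503 to 0.0620 and log2 fold changes of 0.77 to 0.98 met neither cut-off. The lipase-like genes, NPR1 and ICS1 had smaller fold changes and overlapping libraries. With limma, an unadjusted p under 0.05 was met by 5 of the 11, all of them higher, beside 19.0% of all genes tested, and limma-voom also called 0 lower.

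FLS2 (Solyc02g070890), the flagellin receptor, was low in mock, with 3.07, 3.50, 1.78 and 2.07 FPKM in mock 1 to 4. In Torin2 1 to 4 it held 5.24, 8.32, 4.57 and 11.6 FPKM. The conditions did not overlap, and within each condition the libraries of the first kind were the higher ones. The mean went from 2.61 ± 0.815 to 7.44 ± 3.23 FPKM (SD, n = 4 each), on 139 to 271 fragments in a mock library and 332 to 886 in a Torin2 library. FLS2 rose with a log2 fold change of 1.43 (SE 0.33, limma adjusted p = 0.0120), or 2.70-fold, and the change was 1.56 within the first kind of library and 1.31 within the second. The call was lost without mock 4 (1.34, limma adjusted p = 0.0527) and held in the other 7 fits that left out a library, and over 19 alternatives the adjusted p ranged from 0.000153 to 0.0527.

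SERK3 works in Arabidopsis as the partner of FLS2 and of other surface receptors. The copy Solyc10g047140 held 13.9, 13.4, 9.12 and 8.79 FPKM in mock 1 to 4 and 12.5, 23.6, 18.6 and 27.3 FPKM in Torin2 1 to 4. Torin2 1 lay within the mock range and the other Torin2 libraries above it. The means were 11.3 ± 2.72 and 20.5 ± 6.43 FPKM (SD, n = 4 each), with a log2 fold change of 0.82 (SE 0.27, limma adjusted p = 0.0620). Without Torin2 1 this copy was called, with a log2 fold change of 1.04 (limma adjusted p = 0.0139), and its adjusted p ranged from 0.00159 to 0.192 over 19 alternatives.

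The other copy, Solyc01g104970, held 16.6, 14.9, 13.3 and 11.1 FPKM in mock 1 to 4 and 15.7, 24.1, 24.9 and 33.8 FPKM in Torin2 1 to 4. Here too Torin2 1 was the only Torin2 library within the mock range. The means were 14.0 ± 2.33 and 24.6 ± 7.38 FPKM (SD, n = 4 each), with a log2 fold change of 0.78 (SE 0.25, limma adjusted p = 0.0560).

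TPK1b (Solyc06g005500), a receptor-like cytoplasmic kinase of tomato needed for resistance to Botrytis, held 24.3, 24.9, 16.7 and 19.7 FPKM in mock 1 to 4 and 25.9, 42.6, 30.7 and 50.5 FPKM in Torin2 1 to 4. The groups did not overlap, although Torin2 1 was close to mock 2. The means were 21.4 ± 3.90 and 37.4 ± 11.2 FPKM (SD, n = 4 each), with a log2 fold change of 0.77 (SE 0.25, limma adjusted p = 0.0528).

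Solyc07g049180 held 9.66, 11.3, 5.63 and 8.53 FPKM in mock 1 to 4 and 11.1, 22.6, 12.4 and 26.6 FPKM in Torin2 1 to 4. Torin2 1 was just below mock 2, and the other Torin2 libraries were above all mock libraries. The means were 8.79 ± 2.397 and 18.2 ± 7.60 FPKM (SD, n = 4 each), with a log2 fold change of 0.98 (SE 0.31, limma adjusted p = 0.0503). This gene was called without Torin2 1 (1.19, limma adjusted p = 0.0205) and without Torin2 3 (1.13, limma adjusted p = 0.0471), and its adjusted p over 19 alternatives ranged from 0.00145 to 0.148.

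Leaving the fold cut-off aside, the number of signalling genes with an adjusted p under 0.05, all higher, depended on the settings. It was 1 of 11 with limma on the deposited values, beside 7.53% of all genes. It was 5 with limma-voom on recovered fragments, beside 9.03% of all genes, and 4 with the length trend removed, beside 11.9%. Leaving out a single library gave between 0, without mock 4, and 5, without Torin2 1, and the count was 2 without Torin2 3. With both cut-offs, all genes called higher were also fewest without mock 4 (663) and most without Torin2 1 (1531). They numbered 1195 without Torin2 3 and 1186 with all libraries. For fits that left out a library, the share of all genes by adjusted p alone was not computed.

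EDS1 (Solyc06g071280), a hub of immune signalling by intracellular receptors, held 6.86, 7.44, 3.37 and 5.17 FPKM in mock 1 to 4 and 7.16, 8.78, 6.11 and 7.15 FPKM in Torin2 1 to 4. The means were 5.71 ± 1.83 and 7.30 ± 1.104 FPKM (SD, n = 4 each), and the log2 fold change was 0.40 (SE 0.28, limma adjusted p = 0.367). All Torin2 libraries but Torin2 2 lay within the mock range. PAD4 (Solyc02g032850), a partner of EDS1, held 4.32, 4.92, 3.12 and 4.58 FPKM in mock 1 to 4 and 4.79, 8.06, 4.15 and 8.99 FPKM in Torin2 1 to 4. Only Torin2 2 and Torin2 4, both of the first kind, were above the mock range, and the means of 4.24 ± 0.784 and 6.497 ± 2.39 FPKM (SD, n = 4 each) gave a log2 fold change of 0.55 (SE 0.30, limma adjusted p = 0.234).

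SAG101, the other partner of EDS1, has a pair of listed copies. Solyc02g069400 held 5.20, 5.93, 3.72 and 4.36 FPKM in mock 1 to 4 and 5.53, 8.08, 3.94 and 8.39 FPKM in Torin2 1 to 4, with means of 4.80 ± 0.966 and 6.48 ± 2.12 FPKM (SD, n = 4 each). Solyc02g067660 held 6.37, 7.59, 3.23 and 5.32 FPKM in mock 1 to 4 and 6.07, 7.29, 5.12 and 9.54 FPKM in Torin2 1 to 4, with means of 5.63 ± 1.85 and 7.002 ± 1.91 FPKM (SD, n = 4 each). Their log2 fold changes were 0.38 (SE 0.29, limma adjusted p = 0.406) and 0.34 (SE 0.30, limma adjusted p = 0.486), and the groups overlapped in both.

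NPR1 (Solyc07g040690), a receptor of salicylic acid and coactivator of PR genes in Arabidopsis, held 5.92, 7.37, 3.01 and 4.73 FPKM in mock 1 to 4 and 5.88, 6.48, 4.91 and 7.03 FPKM in Torin2 1 to 4. No Torin2 library was above the highest mock library. The means were 5.26 ± 1.84 and 6.07 ± 0.907 FPKM (SD, n = 4 each), with a log2 fold change of 0.26 (SE 0.29, limma adjusted p = 0.584) that turned to -0.01 with the length trend removed.

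ICS1 (Solyc06g071030), the enzyme that opens the isochorismate route to salicylic acid, held 3.39, 2.93, 2.19 and 2.05 FPKM in mock 1 to 4 and 2.05, 6.24, 3.47 and 4.26 FPKM in Torin2 1 to 4. Torin2 1 was as low as the lowest mock library, and Torin2 2 was the highest of all. The means were 2.64 ± 0.630 and 4.01 ± 1.75 FPKM (SD, n = 4 each), with a log2 fold change of 0.51 (SE 0.33, limma adjusted p = 0.337) and a 95% interval of -0.21 to 1.22, so that neither no change nor a change past the cut-off was outside the interval. The study reported higher ICS1 expression with Torin2 in older plants kept in the cold, a setting that these libraries do not cover. The study also designed a primer pair for RT-qPCR of this gene, shown because it marks the ICS1 transcript by sequence, 5′ to 3′.
SlICS1 forward: aaaagggtcttggcgcacta
SlICS1 reverse: agtcaaaagaggtgcctcaagt

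**Figure D2:**
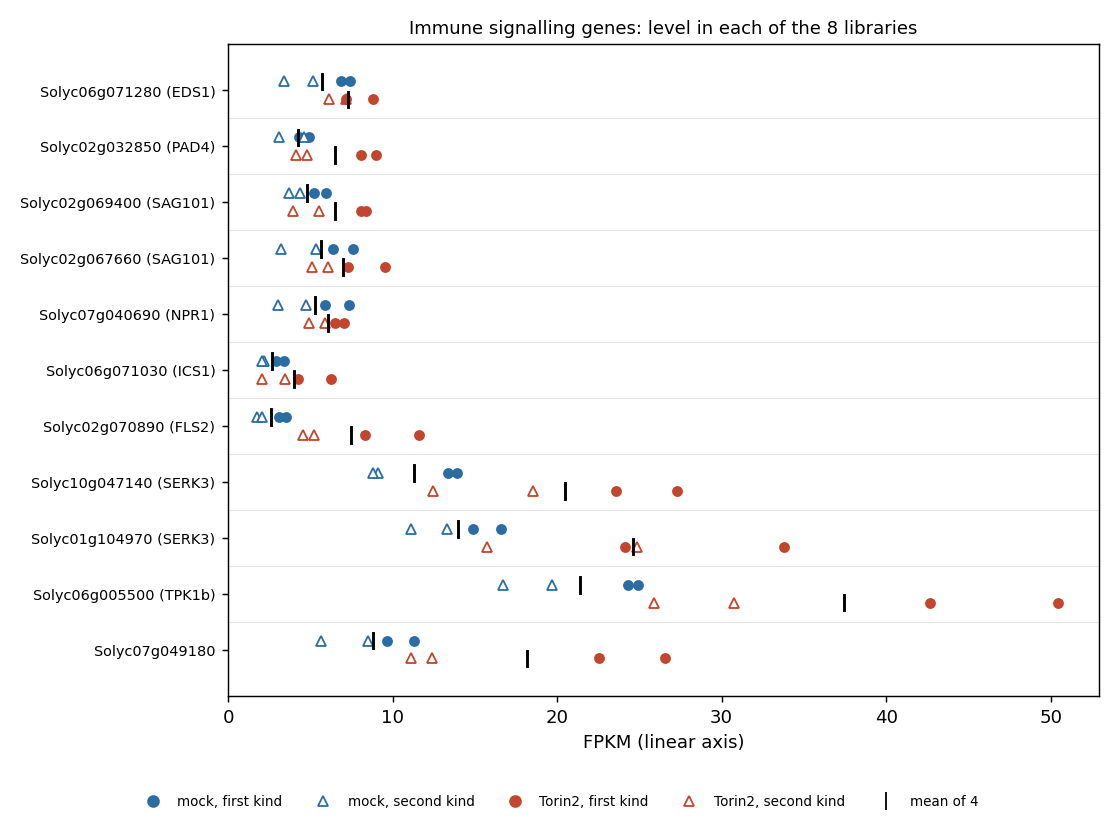
Level of the 11 signalling genes in each library in FPKM on a linear axis, with mock libraries above in blue and Torin2 libraries below in red; filled circles are the first kind of library, open triangles the second, and black bars the mean of 4. FLS2 and TPK1b are the only genes here whose Torin2 libraries all lie above the mock libraries, and first-kind libraries tend to lie to the right within each condition.

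Side by side, the signalling genes had a median log2 fold change of 0.55, from 0.26 to 1.43, and all 11 values were above 0. The PR outputs had a median of 0.19, from -0.53 to 1.89, with 11 of 17 values above 0. Among all genes tested, 13704 of 22330 values were above 0 and the median was 0.16. With median-of-ratios scaling the medians were 0.39 for signalling genes, 0.04 for PR outputs and 0.01 for all genes. Groups without overlap, Torin2 above mock, were found for 2 of 11 signalling genes and 3 of 17 PR outputs, beside 11.4% of all genes, and the opposite order for 0 of either, beside 7.77%. The difference between the 2 lists was not tested.

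**Figure D3:**
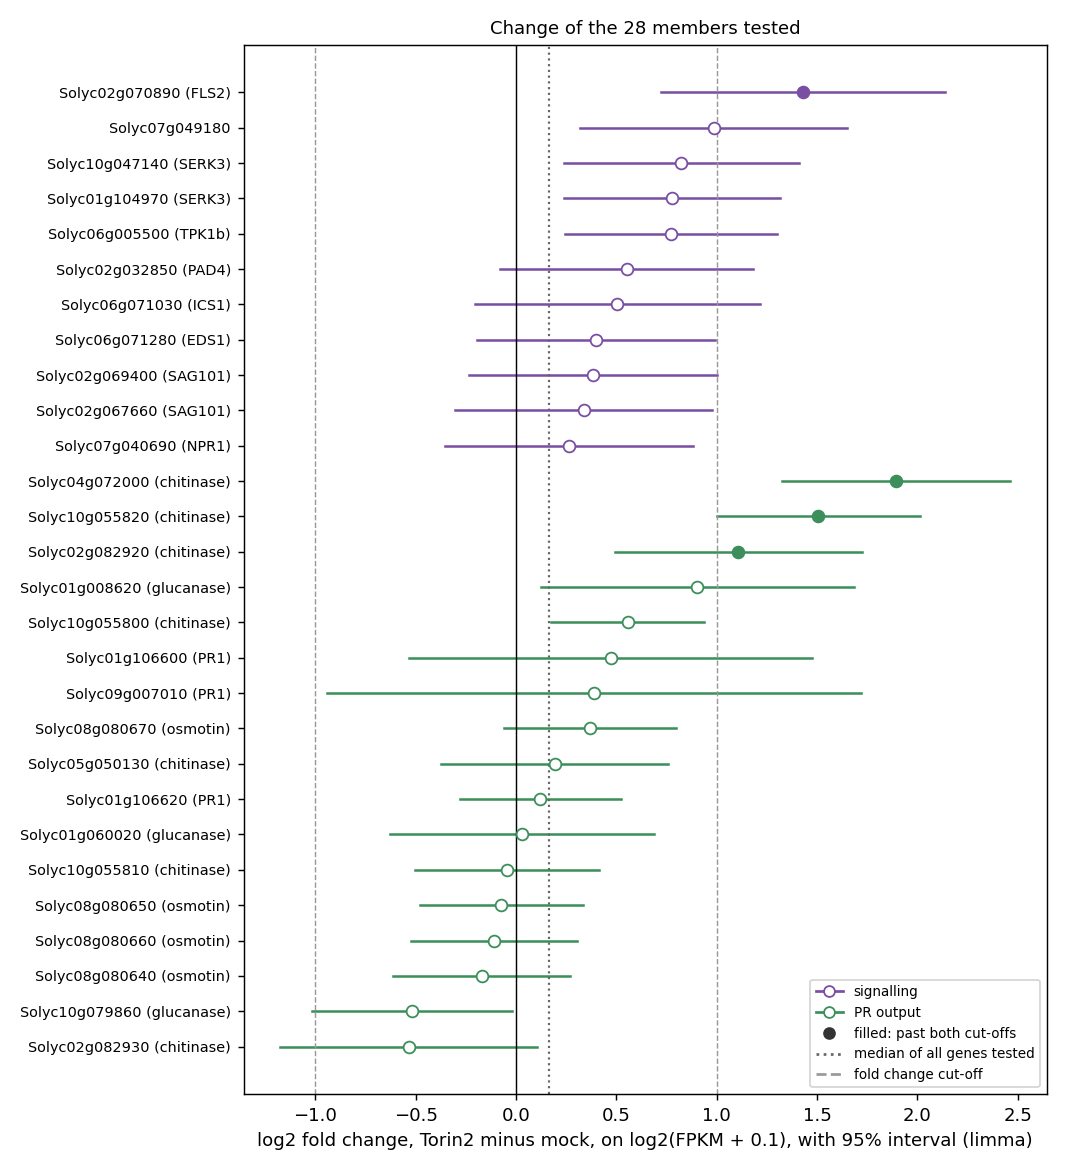
Log2 fold change, Torin2 minus mock, of the 28 members tested, with 95% intervals from limma; filled points passed both cut-offs, dashed lines mark the fold cut-off of 1 in either direction, and the dotted line marks the median of all genes at 0.16. The 3 chitinases and FLS2 are filled, and the other signalling genes lie between 0.26 and 0.98.

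The lists also differed in gene length and in how they followed the kinds of library. The recovered lengths were 1760 to 2603 bp for the signalling genes (median 2155 bp). For the 19 PR outputs with a row, tested or not, they were 480 to 5427 bp (median 969 bp). All genes tested were put in 4 length classes of nearly equal size. The median log2 fold change was 0.16 for genes of 59 to 862 bp and -0.03 for genes of 863 to 1384 bp. It was 0.095 for genes of 1385 to 2051 bp and 0.42 for the longest genes (2052 to 16047 bp), so it did not rise steadily with length. With the length trend of each library removed, the median was 0.40 for signalling genes, 0.14 for PR outputs and 0.01 for all genes. In mock, both first-kind libraries were above both second-kind libraries for 10 of 11 signalling genes and 2 of 17 PR outputs, beside 52.1% of all genes. In Torin2 this order held for 9 of 11 signalling genes and 5 of 17 PR outputs, beside 58.1%. The opposite order, both second-kind libraries above, was found in mock for 0 of 11 signalling genes and 7 of 17 PR outputs, beside 16.7% of all genes, and in Torin2 for 0 of 11 and 6 of 17, beside 16.8%. Within the first kind of library the median log2 fold change of the signalling genes was 0.86 and within the second it was 0.63, beside 0.21 and 0.13 for all genes. The part of the kinds of library and of gene length in these results was otherwise not tested.

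**Figure D4:**
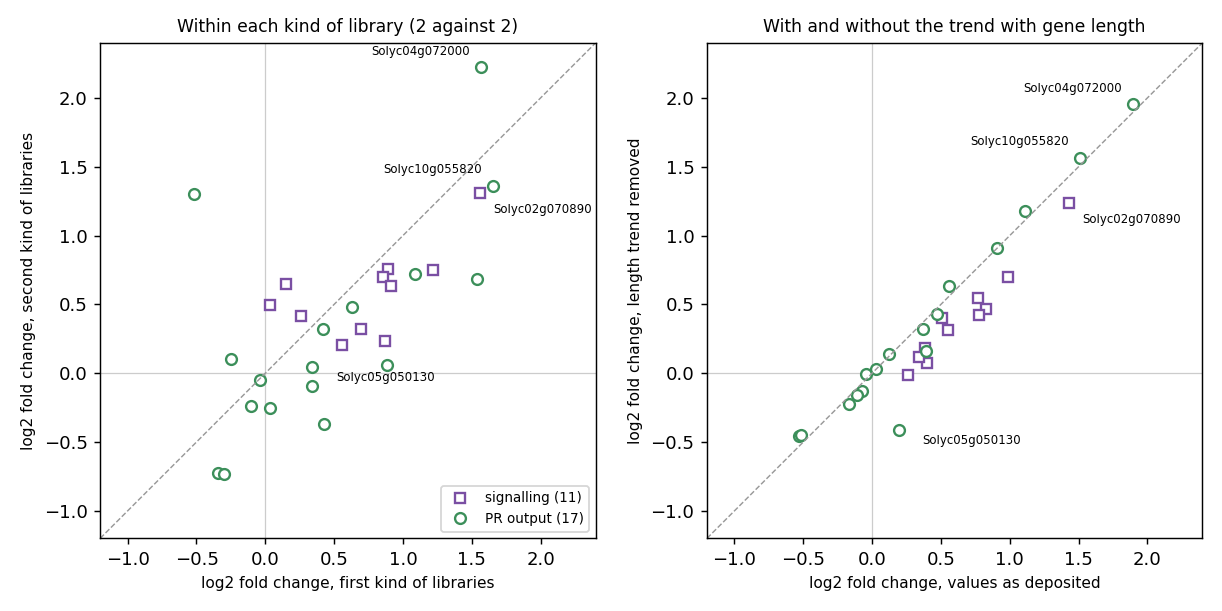
Log2 fold changes of the 28 members tested: left, within the first kind of library against within the second (2 Torin2 against 2 mock libraries in each); right, as deposited against with the trend with gene length removed. Squares are signalling genes, circles PR outputs, and the dashed line marks equal values. All 11 signalling genes lie above 0 within both kinds, where the medians of all genes were 0.21 and 0.13. All 11 drop below the dashed line when the length trend is removed, and the median of all genes fell from 0.16 to 0.01.

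Other genes of immune reception and signalling were taken from a list of 21 identifiers, of which 20 had a row and 19 were tested. Of these, 5 were called higher and 0 lower, beside 5.31% and 3.0% of all genes tested, and 14 were not called. The median log2 fold change was 0.47, beside 0.16 for all genes tested, and with the length trend removed it was 0.07, beside 0.01. This list was chosen with earlier results of these data known. Solyc07g008620, annotated as EIX receptor 1, one of the tomato receptor-like proteins for a fungal xylanase, rose from 1.23 ± 0.339 to 5.67 ± 2.53 FPKM (SD, n = 4 each; log2 fold change 2.06, SE 0.34, limma adjusted p = 0.00147). Solyc06g062920, annotated as an auxin-regulated dual specificity cytosolic kinase, rose from 0.787 ± 0.308 to 2.85 ± 0.916 FPKM (SD, n = 4 each; log2 fold change 1.75, SE 0.38, limma adjusted p = 0.00768). Solyc07g044980, annotated as NIM1-like protein 2, of the family of NPR1, rose from 9.52 ± 2.87 to 25.7 ± 7.86 FPKM (SD, n = 4 each; log2 fold change 1.42, SE 0.28, limma adjusted p = 0.00461). The remaining genes called were Solyc10g080770, annotated as NPR1-interactor protein 1 (log2 fold change 1.29), and Solyc02g090380 (1.097), both named after their values were seen.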

How the data were processed

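The authors prepared 8 libraries with the VAHTS Universal V6 kit, sequenced them as read pairs, aligned the reads to the SL4.0 tomato genome with HISAT2 and deposited FPKM values, with a column for each library and no pooling. The submitters' processing notes also name fastp, FastQC, SAMtools, HTSeq, DESeq and DESeq2. The annotation release, the gene lengths and the use of strand in counting are not given in the sources used here, so reads of overlapping antisense genes may not be told apart. Multiple copies with similar sequence may likewise share reads.

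The FPKM values were used as deposited. Fragments and gene lengths were recovered as whole numbers, with a single factor per library, for 25571 of 25571 genes above 0, and the totals were 99.73% to 99.82% of the depth. P-values come from limma 3.58.1 in R 4.3.3 (lmFit, eBayes with a trend) on log2(FPKM + 0.1), leaving out genes whose mean was under 0.1 FPKM, with Benjamini-Hochberg adjustment over all 22330 genes tested. The cut-offs are those of the study's methods, whose count test was replaced because the deposited unit is FPKM. Exact permutation tests ran over the 70 assignments of 4 libraries to a condition. Tables were made in Python 3.11.15 (pandas 2.3.3, numpy 2.4.6, scipy 1.17.1). Steps were tested on simulated data.

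The members and lists were chosen with earlier results of these data known. Members past the cut-offs, without overlap or highest in their family, and signalling genes that reached a mean of 1 FPKM, were given in full, and of the other immune genes the 3 largest changes. Alternatives were other pseudocounts, filters, scalings, covariates and tools, and leaving out each library. Values within kinds of library and counts by adjusted p alone were added after the data were seen. A search for further relatives by description and for promoter motifs was planned and not run, because the reference table used here carries neither Solyc identifiers nor descriptions. Coordinates are not given for the same reason.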

Additional observations from a re-analysis of the deposited data

Results flagged for a closer look

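In 2 of the 56 groups of 4 libraries examined, 1 library stood apart from the other 3, where about 2.8 such groups would come by chance at 1 in 20. For the chitinase Solyc10g055820, mock 1 held 2.996 FPKM and the other mock libraries 3.50 to 3.56 FPKM, a gap of 0.897 of the range of the group. For the glucanase Solyc01g008620, Torin2 2 held 1.02 FPKM and the other Torin2 libraries 1.87 to 2.03 FPKM. On the same log scale this was a gap of 0.876 of the range. Solyc10g055820 was called without mock 1 as well, and Solyc01g008620 was called in none of the fits that left out a library.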

How the results depend on the processing

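Of 530 values of members under alternatives, 506 changed neither in sign nor in call, 6 were no longer called, 3 became called and 15 changed sign, all 15 in genes that were not called. All genes called higher numbered 1186 and moved to 642 with a pseudocount of 1 FPKM, 767 with median-of-ratios scaling and 736 with quantile normalization. The number was 770 with the length trend removed. With a library left out it ran from 663 (without mock 4) to 1531 (without Torin2 1). All genes called lower numbered 671 and moved to 444 with a pseudocount of 1 FPKM, 1012 with median-of-ratios scaling, 1134 with no fold cut-off and 490 to 793 with a library left out. PR outputs called higher stayed between 2 and 3 with a library left out, and signalling genes called higher ran from 0 (without mock 4) to 3 (without Torin2 1), with 2 without Torin2 3. No member was called lower in any alternative run, by limma or limma-voom.

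By adjusted p alone, 1 signalling gene was higher, against 3 with a filter at 1 FPKM, 5 each with median-of-ratios scaling and quantile normalization. The count was 4 with the length trend removed, 5 with limma-voom and 6 with the kind of library as a covariate. It was 0 to 5 with a library left out. The share of all genes was 7.53%, against 9.03% with limma-voom and 11.9% with the length trend removed. This share was not computed for the other settings. With both cut-offs, 1186 of all genes were called higher. The number was 1058 with the filter, 767 with median-of-ratios scaling, 736 with quantile normalization and 1502 with the kind as a covariate. PR outputs higher by adjusted p numbered 3, against 6 with the kind of library as a covariate. PR outputs lower numbered 0, against 2 with median-of-ratios scaling, 1 with the length trend removed, 2 with the kind as a covariate and 0 to 1 with a library left out (1 without Torin2 2). The kinds were defined from these same libraries, which lowers the residual spread of that fit.

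The deviations of same-numbered mock and Torin2 libraries had correlations of -0.3769, 0.3801, 0.3965 and -0.2527 for replicates 1 to 4. The sign thus differed between replicate numbers, and whether these numbers pair the libraries was not tested otherwise. With a replicate block, 1235 genes were called higher and 674 lower, and 2 signalling genes had an adjusted p under 0.05.

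Changes of sign were as follows. Median-of-ratios scaling gave -0.0382 for Solyc01g106620 and -0.13 for Solyc01g060020. Quantile normalization gave 0.13 for Solyc10g055810, -0.0396 for Solyc05g050130, -0.24 for Solyc01g060020, 0.0187 for Solyc08g080640 and 0.0123 for Solyc08g080650. Removing the length trend gave -0.41 for Solyc05g050130 and -0.015 for Solyc07g040690. Leaving out a library gave -0.0264 to 0.81 for Solyc09g007010, -0.14 to 0.0839 for Solyc10g055810, -0.16 to 0.19 for Solyc01g060020 and -0.14 to 0.025 for Solyc08g080650. The cause of these changes was not tested.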
